A study of Mus musculus with 18 samples.

Results

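The genes described here are 8 cholesterol synthesis enzymes and regulators: Hmgcs1, Fdps, Sqle, Msmo1, Nsdhl, Hsd17b7, Sc5d and Insig1. They were chosen by name, with earlier results of these data known. Each had 1 probe set annotated to its symbol alone, and the 8 stand among 19938 genes named by such probe sets. All 8 passed the filter on low values, which kept 13387 genes.

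RNA was measured on 18 arrays of cells from mouse bone marrow on a C57BL/6 background, with 9 arrays for Ly-6C(hi) monocytes and 9 for neutrophils. For each cell type there were 4 arrays from Zeb2(fl/fl);Mx1-Cre(tg) mice given poly(I:C), labelled Zeb2-deficient, 4 from Zeb2(fl/fl) controls given poly(I:C), and 1 from an untreated Zeb2(fl/fl) control. Treated mice had 2 intraperitoneal doses of 150 µg of poly(I:C), a synthetic double-stranded RNA that triggers interferon, inside 48 h and were analysed 3 weeks afterwards. Both genotypes carry the floxed alleles. Mx1-Cre is an interferon-inducible recombinase active in many cell types, and the controls lacked it, so the presence of Cre and the loss of Zeb2 cannot be told apart here. The labels give neither age nor sex, and nothing in them ties each array to an animal of its own, so p-values reflect the spread among these arrays, part of which may be technical.

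Cells make cholesterol from acetyl-CoA through mevalonate, isoprenoid diphosphates, squalene and lanosterol. The transcription factor SREBP-2 (Srebf2) switches on most enzymes of the path, together with NF-Y, when sterols in the endoplasmic reticulum run low. Insig proteins hold SREBP and its escort Scap in that membrane when sterols are plentiful. Farnesyl diphosphate, made by Fdps, also feeds protein prenylation, dolichol and ubiquinone.

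Zeb2, a zinc-finger transcription factor, was itself at log2 8.74 to 9.84 on the labelled Zeb2-deficient monocyte arrays and at 9.86 to 10.08 on the control monocyte arrays. In neutrophils it was at 7.10 to 8.25 on the labelled Zeb2-deficient arrays and at 6.86 to 7.54 on the controls, which goes against the label. Neither the deleted part of Zeb2 nor where its probes lie is given in the labels, so whether this level checks the deletion was not tested, and the libraries are called labelled Zeb2-deficient throughout. The 9 Ly-6C(hi) monocyte genes tested were all higher in control monocytes than in control neutrophils, and the 10 mature neutrophil genes were all lower there. Of the poly(I:C) arrays, those numbered 1 or 2 in the labels (set A) and those numbered 3 to 5 (set B) deviated together from their group means, over 48 of 48 same-set pairs of arrays from different groups. What the sets are is not stated, and both sets hold both genotypes. Values within each set stand beside the genotype changes of the 8 genes below.

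RefSeq promoter sequences (GRCm38.p6, 250 bases before the transcript start given there) were held for 6 of the 8 genes, all but Fdps and Sqle. Of these, 3 are printed because they belong to a gene that varied with Sqle and Insig1 from array to array (Hmgcs1) and to the genes whose response differed between cell types (Hsd17b7 and Sc5d). Capitals mark the NF-Y motif CCAAT on either strand (ATTGG on the reverse strand) and the sterol-response motif TCACNCCAC on either strand.
Hmgcs1, chr13:119690101-119690350, plus strand: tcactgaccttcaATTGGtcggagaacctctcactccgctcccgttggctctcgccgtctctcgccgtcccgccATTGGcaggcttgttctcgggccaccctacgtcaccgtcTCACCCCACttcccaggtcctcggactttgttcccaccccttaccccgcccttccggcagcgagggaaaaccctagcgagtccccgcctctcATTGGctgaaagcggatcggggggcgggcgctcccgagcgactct
Hsd17b7, chr1:169969206-169969455, minus strand: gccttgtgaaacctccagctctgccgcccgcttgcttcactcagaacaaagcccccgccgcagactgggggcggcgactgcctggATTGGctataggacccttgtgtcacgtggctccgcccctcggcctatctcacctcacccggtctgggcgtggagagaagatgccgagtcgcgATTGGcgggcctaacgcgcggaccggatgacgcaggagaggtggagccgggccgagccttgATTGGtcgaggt
Sc5d, chr9:42264301-42264550, minus strand: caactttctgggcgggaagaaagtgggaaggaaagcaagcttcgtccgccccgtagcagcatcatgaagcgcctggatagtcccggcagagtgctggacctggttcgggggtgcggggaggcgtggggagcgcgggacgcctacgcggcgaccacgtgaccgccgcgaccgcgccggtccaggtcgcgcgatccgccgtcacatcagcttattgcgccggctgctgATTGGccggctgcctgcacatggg

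CCAAT stood in 6 of the 6 windows, against 33.8% of the 32851 promoters of the table cut to the same length. Hmgcs1, Msmo1 and Hsd17b7 held 3 matches each, which 2.79% of the windows reached or passed. TCACNCCAC stood in the Hmgcs1 window only, beginning 137 bases before the start, and in 1.05% of all windows. The letters CACCTG, an E-box that Zeb proteins are known to bind, were in 0 of the 6 windows on either strand, against 17.2% of all windows. The CCAAT and TCACNCCAC matches do not overlap each other in the printed sequences. A match describes letters only and does not show binding.

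In monocytes, 3 of the 8 genes were higher in labelled Zeb2-deficient cells, Fdps by 2.23-fold, Hsd17b7 by 1.61-fold and Sc5d by 1.58-fold, and 0 were lower. Of all genes tested, 5.11% were called higher and 7.54% were called in either direction. The median change of the 8 was 0.16 on the log2 scale, against -0.03 over all genes tested. The other 5 genes, Hmgcs1, Sqle, Msmo1, Nsdhl and Insig1, did not pass the threshold of 0.05 on the adjusted p of limma. In neutrophils 0 of the 8 passed.

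**Figure D1:**
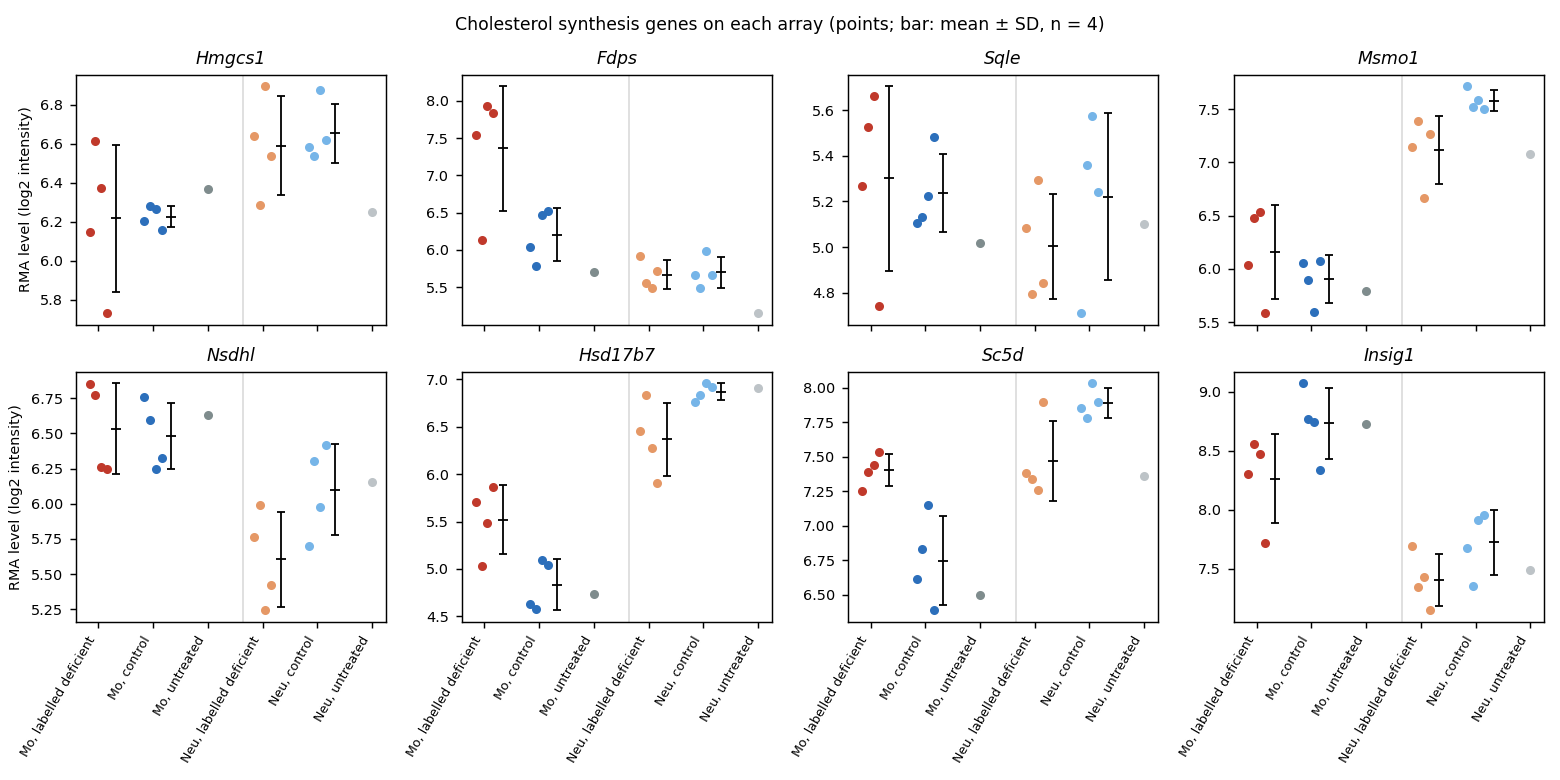
Level of each of the 8 genes (RMA log2 intensity, vertical axes) on every array, by group along the horizontal axis, monocytes left and neutrophils right. Points are arrays, and bars give the mean and SD of groups of 4. The labelled Zeb2-deficient and control monocyte points of Sc5d do not overlap, and Fdps reaches 7.93 in labelled Zeb2-deficient monocytes.

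Among the early steps, Hmgcs1 condenses acetyl units into HMG-CoA. It was at 6.15, 6.62, 6.37 and 5.73 on the 4 labelled Zeb2-deficient monocyte arrays, and at 6.20, 6.28, 6.26 and 6.16 on the 4 control monocyte arrays (log2 intensity, here and below). The controls lay within a narrow band that the labelled Zeb2-deficient arrays straddled. The change was -0.01 ± 0.16 (log2, SE; adjusted p = 0.986), with a 95% interval of -0.35 to 0.33, and was 0.14 within set A and -0.16 within set B.

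Fdps joins isoprenoid units into farnesyl diphosphate. It stood at 7.54, 6.13, 7.93 and 7.84 on the labelled Zeb2-deficient monocyte arrays, against 6.04, 5.78, 6.46 and 6.52 on the control arrays. Labelled Zeb2-deficient arrays 1, 3 and 4 lay above every control, and array 2 lay inside the control range. Fdps rose by 1.16 ± 0.29 (log2, SE; adjusted p = 0.0182), with a 95% interval of 0.55 to 1.76. Set A alone gave 0.92 and set B 1.39. The SE pools the spread of all groups. The SD of Fdps was 0.84 in labelled Zeb2-deficient monocytes, 0.35 in control monocytes, 0.19 in labelled Zeb2-deficient neutrophils and 0.21 in control neutrophils.

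Sqle, squalene epoxidase, catalyses the first oxygen-requiring and a rate-limiting step of sterol synthesis. Its values were 5.27, 5.53, 5.66 and 4.74 in labelled Zeb2-deficient monocytes and 5.11, 5.13, 5.23 and 5.48 in control monocytes. The groups overlapped, and the change was 0.06 ± 0.20 (adjusted p = 0.908), with 0.28 in set A and -0.15 in set B. Labelled Zeb2-deficient array 4 was lowest of its group for Sqle, as it was for Hmgcs1.

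Msmo1, Nsdhl and Hsd17b7 act in turn to remove the methyl groups at carbon 4 of the sterol ring: Msmo1 oxidises them, Nsdhl decarboxylates, and Hsd17b7 reduces the ketone that is left. Only Hsd17b7 of the 3 passed the test in monocytes. It was at 5.71, 5.03, 5.48 and 5.86 on the labelled Zeb2-deficient arrays, and at 4.63, 4.58, 5.10 and 5.04 on the control arrays. Labelled Zeb2-deficient array 2 again lay inside the control range and the other labelled Zeb2-deficient arrays lay above it.

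Hsd17b7 rose by 0.69 ± 0.19 (adjusted p = 0.0358), with a 95% interval of 0.28 to 1.09, and by 0.77 in set A and 0.60 in set B. With the label number as a block the change was 0.77, and the call was lost (adjusted p = 0.0558). That fit gives no weight in this contrast to control array 5 and labelled Zeb2-deficient array 3, which have no partner. The control monocyte levels of Hsd17b7 lay close to the array medians of 4.81 to 4.92.

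Msmo1 stood at 6.04, 6.47, 6.53 and 5.58 in labelled Zeb2-deficient monocytes and at 6.06, 5.89, 5.59 and 6.08 in control monocytes. Nsdhl stood at 6.85, 6.77, 6.26 and 6.24 in labelled Zeb2-deficient monocytes and at 6.76, 6.59, 6.24 and 6.33 in control monocytes. Both overlapped between genotypes. Their changes were 0.25 ± 0.19 (adjusted p = 0.532) for Msmo1 and 0.05 ± 0.20 (adjusted p = 0.928) for Nsdhl. Set A gave 0.28 and set B 0.22 for Msmo1, and set A gave 0.14 and set B -0.03 for Nsdhl. The Nsdhl values of both genotypes were higher in set A than in set B.

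Sc5d introduces a double bond into lathosterol, one of the last steps before cholesterol. It was at 7.25, 7.39, 7.44 and 7.53 on the labelled Zeb2-deficient monocyte arrays, against 6.61, 6.83, 7.15 and 6.39 on the control arrays. Every labelled Zeb2-deficient array was above every control array, which held for this member alone and for 10.0% of all genes tested in either direction. Sc5d rose by 0.66 ± 0.16 (adjusted p = 0.0153), by 0.60 in set A and by 0.72 in set B.

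Insig1 retains the SREBP and Scap complex in the endoplasmic reticulum and is itself an SREBP target. Its level was 8.30, 8.55, 8.47 and 7.72 in labelled Zeb2-deficient monocytes and 9.08, 8.77, 8.74 and 8.33 in control monocytes. The 3 higher controls stood above every labelled Zeb2-deficient array, and control array 5 lay among them. The change of -0.47 ± 0.19 did not pass (adjusted p = 0.168). Set A alone gave -0.50 and set B -0.44. Its sign was opposite to those of the 3 genes that rose.

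The calls of the 3 genes rest on the pooled estimate of spread. With only the 8 monocyte arrays in the fit, the adjusted p was 0.105 for Fdps, 0.0761 for Hsd17b7 and 0.0543 for Sc5d. The Fdps call was lost without control array 1 or 2 or labelled Zeb2-deficient array 1, 3 or 4 (adjusted p 0.0522 to 0.0798), and so was the Hsd17b7 call (0.0788 to 0.133). The Sc5d call was lost without control array 1 or 5 (0.0512 and 0.0616).

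In neutrophils the change was below 0 for all 8 genes, with a median of -0.37 against -0.01 over all genes tested. None passed after adjustment, where 0.120% of all genes did. At an unadjusted p under 0.05, 4 of the 8 were lower, against 2.52% of all genes tested. Those 4 were Hsd17b7, Nsdhl, Msmo1 and Sc5d, which among the 8 are the enzymes that follow lanosterol. Of 10 other enzymes of the path tested, 1 reached an unadjusted p under 0.05 in neutrophils. Their changes were above 0 for 4 and below 0 for 6, with a median of -0.09.

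**Figure D2:**
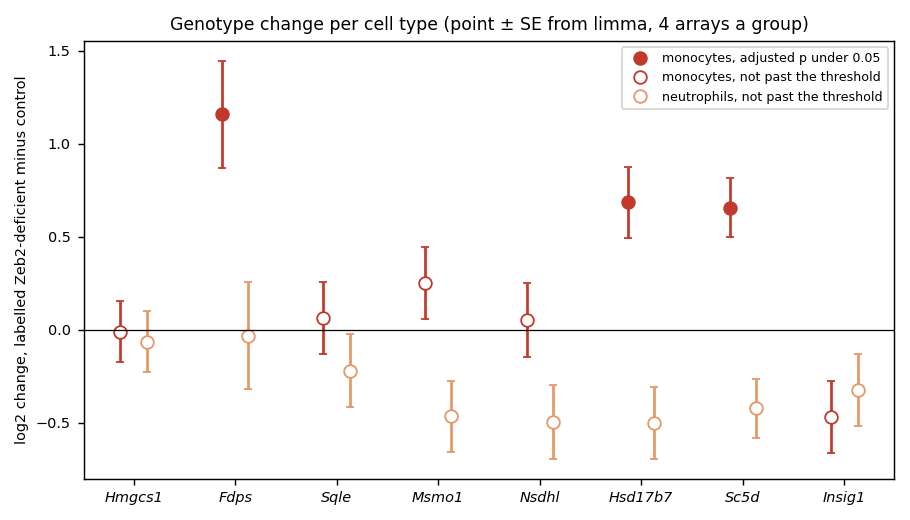
Change of each gene (vertical axis, log2, control subtracted from labelled Zeb2-deficient) in monocytes and in neutrophils, as the limma estimate with its standard error. Each group has 4 arrays. The standard error pools the spread of all groups, so for a gene it is the same in both cell types. Fdps, Hsd17b7 and Sc5d lie above 0 in monocytes, and all 8 neutrophil estimates lie below 0, none past the adjusted threshold.

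Msmo1 stood at 7.15, 7.39, 6.66 and 7.27 on the labelled Zeb2-deficient neutrophil arrays and at 7.72, 7.52, 7.58 and 7.50 on the control neutrophil arrays. Each labelled Zeb2-deficient array was below each control array, as for 3.43% of all genes in either direction, and the change was -0.46 ± 0.19 (adjusted p = 0.909), with -0.35 in set A and -0.58 in set B. Hsd17b7 stood at 6.45, 6.83, 6.28 and 5.91 in labelled Zeb2-deficient neutrophils and at 6.76, 6.83, 6.96 and 6.92 in control neutrophils. Its change was -0.50 ± 0.19 (adjusted p = 0.868), with -0.16 in set A and -0.85 in set B.

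Nsdhl stood at 5.77, 5.99, 5.24 and 5.42 in labelled Zeb2-deficient neutrophils, against 5.70, 6.30, 5.97 and 6.42 in control neutrophils. The labelled Zeb2-deficient arrays of set B were the lowest, and the change of -0.49 ± 0.20 was made up of -0.12 in set A and -0.86 in set B. Sc5d stood at 7.38, 7.33, 7.26 and 7.89 in labelled Zeb2-deficient neutrophils, against 7.85, 7.78, 8.03 and 7.89 in control neutrophils. Labelled Zeb2-deficient array 4 reached the controls and the other labelled Zeb2-deficient arrays did not, for a change of -0.42 ± 0.16 (adjusted p = 0.850), with -0.46 in set A and -0.39 in set B.

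The remaining genes overlapped between the neutrophil genotypes. Hmgcs1 ranged over 6.29 to 6.90 in labelled Zeb2-deficient neutrophils and 6.54 to 6.87 in controls. Fdps ranged over 5.49 to 5.92 in labelled Zeb2-deficient neutrophils and 5.49 to 5.99 in controls, and its change was -0.03 ± 0.29. Sqle ranged over 4.79 to 5.29 in labelled Zeb2-deficient neutrophils and 4.71 to 5.57 in controls. Insig1 ranged over 7.15 to 7.69 in labelled Zeb2-deficient neutrophils and 7.35 to 7.95 in controls. None of their 4 changes passed even without adjustment. Within sets A and B the changes were -0.10 and -0.03 for Hmgcs1, 0.16 and -0.22 for Fdps, -0.10 and -0.34 for Sqle, and 0.00 and -0.64 for Insig1.

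The difference between the monocyte and the neutrophil change was tested directly. It passed for Hsd17b7, at 1.19 ± 0.27 (log2, SE; adjusted p = 0.0212), and for Sc5d, at 1.08 ± 0.22 (adjusted p = 0.0119), where 2.68% of all genes passed. Both genes rose in labelled Zeb2-deficient monocytes and had neutrophil estimates below 0. The replicate block gave 1.22 for Hsd17b7 and ended its call (adjusted p = 0.0634). Within sets A and B the difference was 0.92 and 1.45 for Hsd17b7, and 1.05 and 1.10 for Sc5d.

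For Fdps the difference was 1.19 ± 0.41 and missed the threshold (adjusted p = 0.159). Without labelled Zeb2-deficient monocyte array 2 it was 1.60 and passed (adjusted p = 3.78e-04), and within sets A and B it was 0.76 and 1.61. The Hsd17b7 difference missed the threshold without control monocyte array 1 or 2 or labelled Zeb2-deficient neutrophil array 3 (adjusted p 0.0505 to 0.0517). The Msmo1 difference was 0.72 ± 0.27 (adjusted p = 0.223), with 0.63 in set A and 0.80 in set B.

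Between cell types, 5 of the 8 genes differed in the controls, against 58.6% of all genes, a share near that of the genes at large. Hsd17b7 was 4.09-fold lower in control monocytes than in control neutrophils (log2 -2.03 ± 0.19, adjusted p = 5.50e-08), and Msmo1 was 3.20-fold lower (log2 -1.68 ± 0.19, adjusted p = 6.68e-07). Sc5d was 2.21-fold lower (log2 -1.14 ± 0.16, adjusted p = 6.89e-06). Insig1 ran the other way and was 2.01-fold higher in control monocytes (log2 1.01 ± 0.19, adjusted p = 2.33e-04). Hmgcs1 was lower by a smaller margin (log2 -0.43 ± 0.16, adjusted p = 0.0320). The Hmgcs1 call was lost without any one of 5 arrays, control monocyte array 1, 4 or 5 or control neutrophil array 4 or 5 (adjusted p 0.0502 to 0.0984).

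The order of the 4 group means differed from gene to gene. Hsd17b7 averaged 5.52 ± 0.36 in labelled Zeb2-deficient monocytes, 4.84 ± 0.27 in control monocytes, 6.37 ± 0.38 in labelled Zeb2-deficient neutrophils and 6.87 ± 0.09 in control neutrophils (SD, n = 4 each). Labelled Zeb2-deficient monocytes thus stood between the control monocytes and both neutrophil groups. Sc5d averaged 7.40 ± 0.12 in labelled Zeb2-deficient monocytes, 6.75 ± 0.32 in control monocytes, 7.47 ± 0.29 in labelled Zeb2-deficient neutrophils and 7.89 ± 0.11 in control neutrophils (SD, n = 4 each). Within the labelled Zeb2-deficient samples, monocytes and neutrophils differed in Sc5d by only -0.07 ± 0.16 (log2, monocytes minus neutrophils; adjusted p = 0.730, 95% interval -0.40 to 0.27).

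Fdps had another order. It averaged 7.36 ± 0.84 in labelled Zeb2-deficient monocytes, 6.20 ± 0.35 in control monocytes, 5.67 ± 0.19 in labelled Zeb2-deficient neutrophils and 5.70 ± 0.21 in control neutrophils (SD, n = 4 each). The mean of the labelled Zeb2-deficient monocytes was the highest of the 4, and 3.23-fold above that of the labelled Zeb2-deficient neutrophils (log2 1.69 ± 0.29, adjusted p = 7.47e-05). The control monocytes and control neutrophils were 0.50 ± 0.29 apart, which did not pass (adjusted p = 0.143), but did with only those 8 arrays in the fit (0.0222).

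In the labelled Zeb2-deficient samples 5 of the 8 genes differed between cell types, where 62.1% of all genes did. Besides Fdps, Nsdhl was higher in labelled Zeb2-deficient monocytes than in labelled Zeb2-deficient neutrophils, by 0.93 ± 0.20 (log2, adjusted p = 6.24e-04), and Insig1 by 0.86 ± 0.19 (adjusted p = 0.00101). Msmo1 (log2 -0.96 ± 0.19, adjusted p = 3.67e-04) and Hsd17b7 (log2 -0.85 ± 0.19, adjusted p = 0.00107) were lower in the monocytes. Sqle passed in neither genotype.

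**Figure D3:**
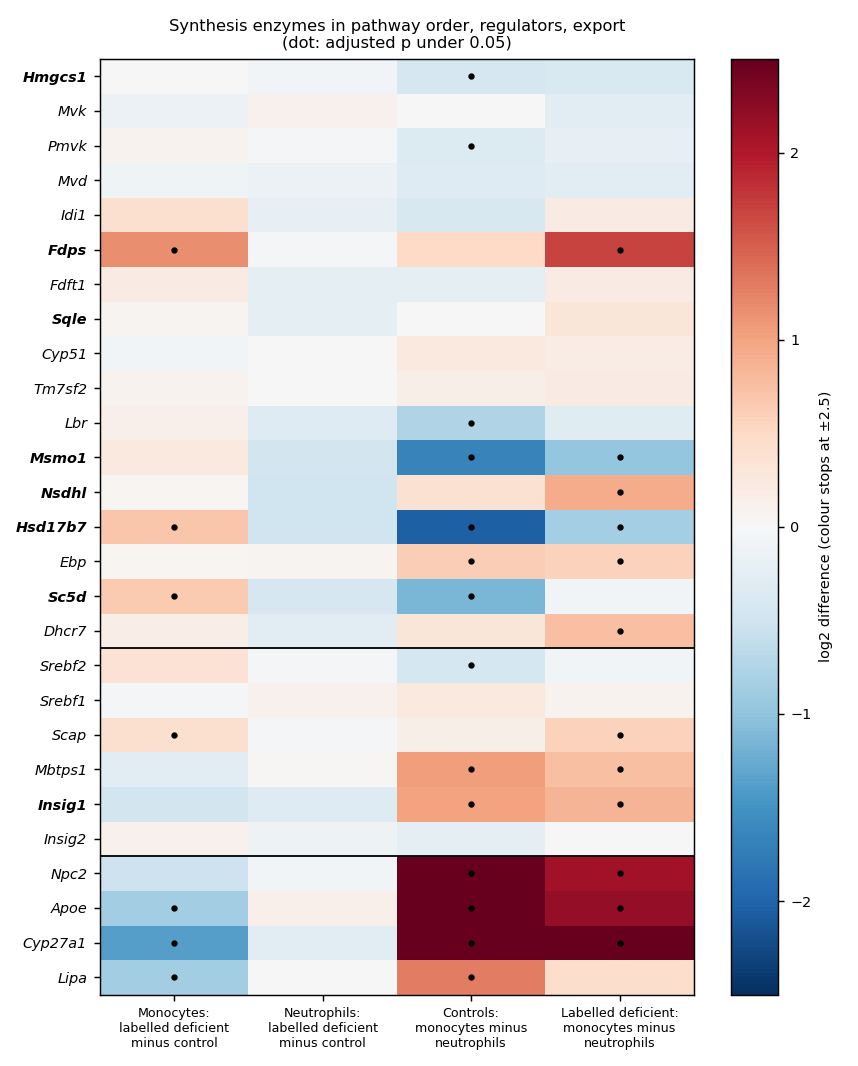
Log2 difference (colour) of synthesis enzymes in the order of the pathway, of regulators and of export and storage genes, one row a gene and one column a comparison, with a dot where the adjusted p was under 0.05. In the column of the monocyte change the dots fall on Fdps, Hsd17b7, Sc5d, Scap, Cyp27a1, Lipa and Apoe.

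Of 14 other enzymes of the path, 10 were tested, and 0 changed in monocytes or in neutrophils. Of all genes, 7.54% and 0.120% did. In monocytes the changes of the 10 ran from -0.16 for Mvk, mevalonate kinase (adjusted p = 0.543), to 0.40 for Idi1, isopentenyl diphosphate isomerase (adjusted p = 0.359). Their median was 0.08. In neutrophils Lbr, a sterol reductase of the nuclear envelope, was at -0.33 ± 0.15 (adjusted p = 0.971) and Dhcr7, the last reductase of one branch, at -0.28 ± 0.15 (adjusted p = 0.989). Between control cell types 3 of the 10 differed, where 58.6% of all genes did. Ebp, a sterol isomerase, was higher in control monocytes than in control neutrophils by 0.62, and Lbr (-0.75) and Pmvk (-0.33), phosphomevalonate kinase, were lower. The Pmvk call was lost without any one of 5 of the 8 control arrays (adjusted p 0.0665 to 0.124) and in set B (-0.14, adjusted p = 0.567). The Ebp call was lost under quantile normalization (0.42, adjusted p = 0.0745) and in set A (0.24, adjusted p = 0.394).

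Of 12 regulators of sterol sensing and uptake, 9 were tested and 1 changed in monocytes, where 7.54% of all genes did. Scap, the escort of SREBP, averaged 6.62 in labelled Zeb2-deficient monocytes and 6.22 in control monocytes, a rise of 0.40 ± 0.11 (adjusted p = 0.0398). With the replicate block its adjusted p was 0.129, and leaving out any one of 6 of the 8 monocyte arrays also lost the call (0.0560 to 0.133). With no filter on low values it was 0.0593, and with only the monocyte arrays 0.106. Its change was 0.24 in set A (adjusted p = 0.728) and 0.56 in set B (adjusted p = 0.0443). Srebf2, which encodes SREBP-2, was at 0.36 ± 0.14 (adjusted p = 0.145), and Insig2, the relative of Insig1, at 0.11 ± 0.16 (adjusted p = 0.780). In neutrophils 0 of the 9 changed, and Srebf2 was at -0.02 ± 0.14.

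Srebf2 was also lower in control monocytes than in control neutrophils (log2 -0.44 ± 0.14, adjusted p = 0.0124), as were Hsd17b7, Msmo1, Sc5d and Hmgcs1. Of the 8 genes, Insig1 was higher (1.01), and Fdps (0.50), Nsdhl (0.38) and Sqle (0.02) had estimates above 0 that did not pass. Of all genes tested, 58.6% differed between these cells in either direction. Whether the Srebf2 level bears on the differences of the 8 genes was not tested. The Srebf2 call was lost in set B (-0.37, adjusted p = 0.0706). Mylip, a sterol-regulated ubiquitin ligase, was lower in control monocytes as well (log2 -0.62). Npc2, which carries cholesterol out of lysosomes, was higher in control monocytes by 2.55, and Mbtps1, a protease that cuts SREBP, by 1.04. In the labelled Zeb2-deficient samples the Srebf2 difference between monocytes and neutrophils was -0.06 ± 0.14 (adjusted p = 0.711).

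Of 10 genes of sterol export and storage, 6 were tested, and 3 fell in monocytes, where 2.44% of all genes fell. Cyp27a1, a mitochondrial sterol hydroxylase, averaged 7.21 in labelled Zeb2-deficient monocytes and 8.58 in control monocytes, a change of -1.37 ± 0.23 (adjusted p = 0.00110). Lipa, the lysosomal lipase that frees cholesterol from its esters, fell by 0.87 ± 0.21 (adjusted p = 0.0136), and Apoe, the lipoprotein that takes up exported cholesterol, by 0.87 ± 0.22 (adjusted p = 0.0179). With the replicate block the adjusted p was 0.00723 for Cyp27a1, 0.0671 for Lipa and 0.0864 for Apoe. With only the monocyte arrays in the fit the Lipa and Apoe calls were lost (0.0683 and 0.0769). In set A none of the 3 passed, at -1.11 for Cyp27a1 (adjusted p = 0.137), -0.48 for Lipa (0.503) and -0.44 for Apoe (0.613), while in set B all 3 did, at -1.63, -1.25 and -1.31. All 3 were higher in control monocytes than in control neutrophils, Cyp27a1 by 3.59, Apoe by 3.21 and Lipa by 1.28. The Lipa call was also lost without labelled Zeb2-deficient monocyte array 4 (adjusted p = 0.0511), and the Apoe call without any one of 4 arrays (0.0540 to 0.0665).

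Genes of other cells moved with genotype in the monocyte samples. The mean level of 10 mature neutrophil genes was 10.1 to 11.0 on the labelled Zeb2-deficient monocyte arrays, against 6.97 to 8.50 on the control monocyte arrays, and 10 of the 10 rose. The same genes averaged 12.26 to 12.34 on labelled Zeb2-deficient neutrophil arrays and 12.34 to 12.37 on control neutrophil arrays. The mean of 6 primary granule genes, which mark promyelocytes, was 8.91 to 11.0 on labelled Zeb2-deficient and 6.44 to 8.84 on control monocyte arrays, and 6 of the 6 rose. Of 11 cell cycle genes 6 rose, and their level averaged 8.51 on labelled Zeb2-deficient and 7.65 on control monocyte arrays, which did not overlap. Of the 9 monocyte genes 3 fell, with means of 8.93 to 10.03 on labelled Zeb2-deficient and 10.05 to 10.29 on control monocyte arrays. Of erythroid, B cell and T and NK cell genes 0 of 8 tested changed in monocytes, where 7.54% of all genes did. Of 3 plasmacytoid dendritic genes 1 rose and 1 fell, and of 5 macrophage genes 1 rose and 1 fell. Of 2 mast cell and basophil genes 1 rose. That gene was Kit, also a progenitor marker, which rose by 2.01 ± 0.29 (log2, adjusted p = 2.56e-04). In bulk samples such as these, a change in the number of cells of a type and a change in RNA per cell cannot be told apart.

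The 3 genes that rose did not all share the order of the neutrophil groups. Hsd17b7 and Sc5d were higher in control neutrophils than in control monocytes, while Fdps was not. Msmo1, also higher in control neutrophils, changed by 0.25 in monocytes, which did not pass. The primary granule genes averaged 10.29 in labelled Zeb2-deficient monocytes, 7.49 in control monocytes, 5.65 in labelled Zeb2-deficient neutrophils and 5.17 in control neutrophils. The cell cycle genes averaged 8.51, 7.65, 6.61 and 6.36 in the same order. Fdps too was highest in labelled Zeb2-deficient monocytes and next in control monocytes. Control monocyte arrays 4 and 5, which are those of set B, were the highest of their group in primary granule level (8.84 and 7.96), Fdps and Hsd17b7. Sc5d did not share this order, being highest on control array 4 (7.15) and lowest on control array 5 (6.39). Labelled Zeb2-deficient monocyte array 2 had the lowest primary granule level (8.91), the lowest mature neutrophil level (10.1) and the lowest Fdps (6.13) and Hsd17b7 (5.03) of its group. The lowest Sc5d of that group was on array 1 (7.25), against 7.39 on array 2. Array 4 had the highest primary granule level (11.0) and the lowest monocyte level (8.93), the lowest Zeb2, Hmgcs1, Sqle, Msmo1 and Insig1, and the highest Hsd17b7 and Sc5d. The part of these markers in the changes of the 8 genes was not tested.

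**Figure D4:**
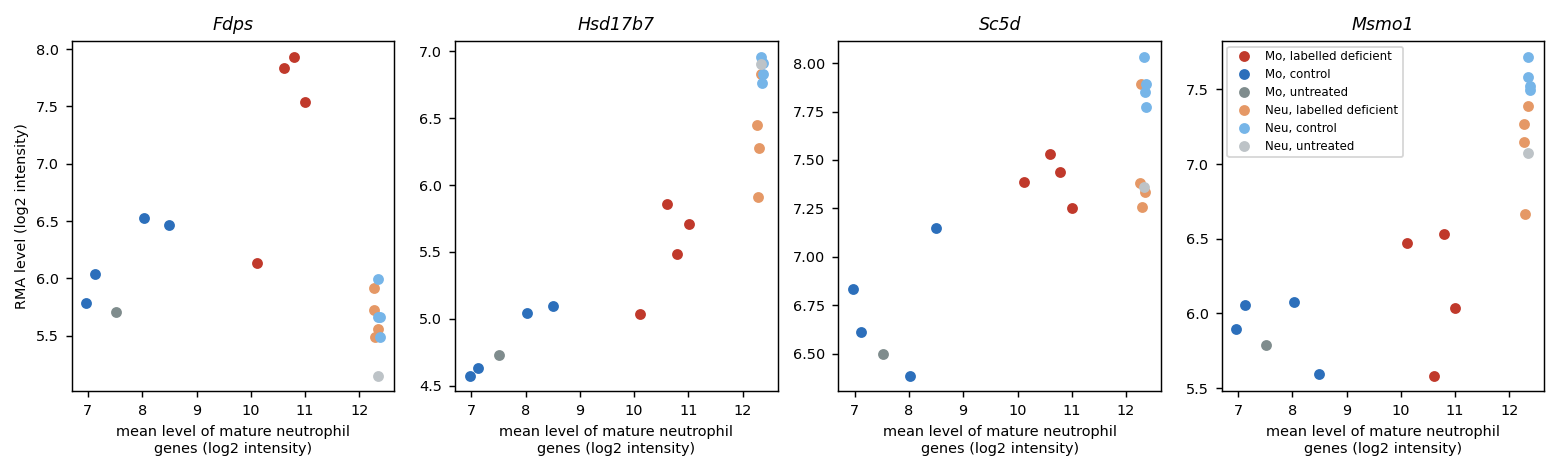
Level of 4 of the genes (vertical axes, RMA log2 intensity) against the mean level of 10 mature neutrophil genes (horizontal axes, log2 intensity) on each array, coloured by group. The labelled Zeb2-deficient monocytes, at 10.1 to 11.0 on the horizontal axis, stand between the control monocytes (6.97 to 8.50) and both neutrophil groups.

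Within groups, the genes did not vary as one block. Over the 16 poly(I:C) arrays, taken as deviations from group means, 12 of the 28 pairs of genes correlated above 0, and the median was -0.05. Hmgcs1 and Sqle had the highest correlation (Pearson 0.74, Spearman 0.67), followed by Hmgcs1 and Insig1 (Pearson 0.65, Spearman 0.68) and by Fdps and Hsd17b7 (Pearson 0.61, Spearman 0.58). Without the 2 arrays farthest from the median of the first gene of each pair, these were 0.62, 0.40 and 0.54. With set means also removed they were 0.76, 0.79 and 0.48. Hmgcs1 and Hsd17b7 ran against each other (Pearson -0.58, Spearman -0.51, -0.59 with set means removed and -0.31 without the 2 farthest arrays). These values describe 16 arrays that share groups and sets, and carry no test.

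**Figure D5:**
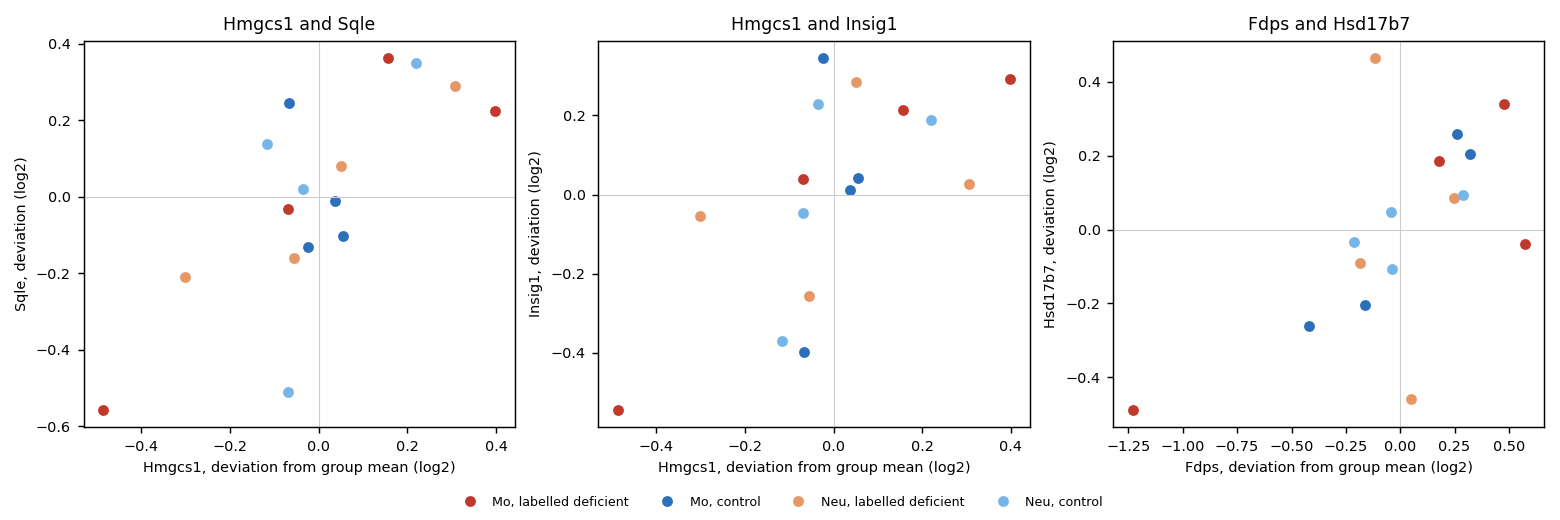
Deviation of 3 pairs of genes from their group means (both axes, log2 intensity) on the 16 poly(I:C) arrays, coloured by group. Labelled Zeb2-deficient monocyte array 4 is the lowest point for Hmgcs1, Sqle and Insig1, and array 2 is the lowest for Fdps and Hsd17b7.

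The genes elsewhere on the array that were most like the mean deviation of the 8 were Smoc2 (Pearson 0.91, Spearman 0.83), Tmem245 (0.85 and 0.84), Insyn2b (0.84 and 0.80), Tbc1d23 (0.83 and 0.79) and Parp10 (0.81 and 0.78), over the 16 arrays and as a description only.

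The untreated control arrays, 1 per cell type, allow no test. The poly(I:C) control monocytes spanned the untreated monocyte value for 5 of the 8 genes. Fdps was at 5.78 to 6.52 on the poly(I:C) controls against 5.70 on the untreated array, Sqle at 5.11 to 5.48 against 5.02, and Hmgcs1 at 6.16 to 6.28 against 6.37. In neutrophils the poly(I:C) controls spanned the untreated value for 4 genes and lay above it for the other 4. Those were Hmgcs1, at 6.54 to 6.87 against 6.25 untreated, Fdps, at 5.49 to 5.99 against 5.15, Msmo1, at 7.50 to 7.72 against 7.08, and Sc5d, at 7.78 to 8.03 against 7.36.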

How the data were processed

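RNA of Ly-6C(hi) monocytes and neutrophils from mouse bone marrow was hybridised to 18 Affymetrix Mouse Gene 1.0 ST arrays, per the labels' protocols with Ovation PicoSL targets. The authors deposited log2 intensities for each probe set. Per the submitters' processing notes these come from RMA, whose version is not given in the sources used here. Values spanned 1.05 to 13.50 and array medians 4.81 to 4.92. Precision is limited by how many arrays there are.

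The platform annotation gave 1 symbol to 21789 of 30177 probe sets, several to 1621 and none to 6767. Only probe sets with 1 symbol were used. For 999 genes with several, the one with the highest mean was kept; each of the 8 genes had 1. Genes above the 40th percentile of an array on at least 4 of 18 arrays were tested. A group-means model over all 18 arrays was fitted with limma 3.58.1 in R 4.3.3 (variance trend, 12 residual degrees of freedom). P-values are two-sided and Benjamini-Hochberg adjusted over 13387 genes, with a threshold of 0.05. The untreated arrays entered no contrast. The fit was tested on simulated data with independent noise and, for each gene, the same spread in all groups. That simulation holds no array sets and no spread that differs between groups, so it cannot tell how these affect the calls.

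The genes, lists and naming rule were chosen with earlier results of these data known. In each contrast up to 4 genes of a pathway list with the smallest p past the threshold, or else 2, are named, with Srebf2 and Insig2 always, and the 5 genes most like the mean deviation of the 8.

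Deviations from group means correlated at 0.290 to 0.428 between same-numbered labelled Zeb2-deficient and control monocyte arrays (3 pairs) and at 0.183 to 0.378 in neutrophils (3 pairs), so the replicate number was used as a block in an alternative. The pairing comes from the values, not the labels, and arrays of 1 set with different numbers also correlated above 0.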

Additional observations from a re-analysis of the deposited data

Results flagged for a closer look

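The monocyte change minus the neutrophil change differed from 0 by the test of the difference for Hsd17b7 (1.19 on the log2 scale) and for Sc5d (1.08).

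A sample stood far from the others of its group of 4, by Dixon's criterion at 95%, in 5 of 148 groups of 37 genes examined, and chance marks about 1 in 20 groups. None of the 5 belongs to the 8 cholesterol genes of the report. Ebp was highest at 6.46 on 1 labelled Zeb2-deficient monocyte array. Zeb2 was highest at 10.08, Pdss2, a ubiquinone synthesis enzyme, highest at 4.85, and Dhdds, a dolichol synthesis enzyme, lowest at 6.58, each on 1 control monocyte array. Cyp27a1 was lowest at 4.66 on 1 control neutrophil array.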

How the results depend on the processing

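Leaving out single arrays gave 0 to 3 of the 8 genes past the threshold in monocytes, against 3 with all arrays, and 1 to 3 for the difference between cell types, against 2. With only the arrays compared in the fit 0 passed in monocytes, within set A 0 and within set B 1. For the difference, 1 passed with the replicate block and 0 within set A. In neutrophils 0 passed under every alternative, and 4 to 6 passed between cell types in either genotype. Over all genes tested the monocyte count of 1010 was 500 with only the arrays compared, 1613 with array weights, 1516 with set as a block, 215 and 1722 within sets A and B, and 620 to 2001 with single arrays left out. It was 2001 without labelled Zeb2-deficient monocyte array 2, 621 without array 3 and 620 without array 4. The neutrophil count of 16 was 9 with only the arrays compared, 3 within set A and 8 to 17 with single arrays left out. The count of 359 for the difference was 650 with array weights, 223 with the replicate block, 567 with set as a block, 72 and 732 within sets A and B, and 245 to 904 with single arrays left out. Of 2238 alternative values of 110 gene results, 2130 kept their direction and side of the threshold or were past it in neither fit, 78 lost the threshold, 30 passed it and 0 called values turned sign, while 50 values past the threshold in neither fit turned sign. Apart from the calls named here and in the report, the replicate block changed no call of the 8 genes. Where no other value is given, the cause of a lost call was not tested. Within a set each group has 2 arrays, which limits what those fits can call.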

Other observations

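Fatty acid synthesis genes, many of them targets of the SREBP family, were not called in monocytes (0 of 7 tested by limma). Their median change was 0.02, with 5 above 0 and 2 below. The lowest was Elovl6, at 5.80 in labelled Zeb2-deficient monocytes and 6.14 in control monocytes (-0.33). At an unadjusted p under 0.05 stood 3 of the 7, and 2699 of all 13387 genes tested. Scd2, a stearoyl-CoA desaturase, averaged 6.27 in labelled Zeb2-deficient monocytes and 5.49 in control monocytes (change 0.77 ± 0.24, adjusted p = 0.0585), and Fasn, fatty acid synthase, 5.60 in labelled Zeb2-deficient monocytes and 5.28 in control monocytes (0.31 ± 0.11, adjusted p = 0.0883). Scd2 passed under 4 alternatives: array weights (adjusted p = 0.00878), set as a block (0.0248), set B alone (0.0176) and without labelled Zeb2-deficient monocyte array 2 (0.00392), which also took Fasn past the threshold (0.0270). Scd2 was higher in control monocytes than in control neutrophils by 1.68 and Fasn by 0.44. The Fasn call was lost in set A (0.39, adjusted p = 0.123). In control neutrophils Scd2 averaged 3.82 and passed the array's 40th percentile on 0 of 4 arrays. The size of its difference is thus uncertain. Of 7 genes that use isoprenoids, made from the product of Fdps, 0 passed in monocytes. An unadjusted p under 0.05 was reached by 3 of them, beside the same 2699 of all 13387 genes. Their median change was 0.04, with 4 above 0 and 3 below. Pdss2 was at 0.47 ± 0.15 (adjusted p = 0.0680) and passed under 5 alternatives: array weights (0.0203), set as a block (0.0432), set B alone (0.00783) and without labelled Zeb2-deficient monocyte array 1 (0.0414) or 2 (0.0173). Of these 7, Pggt1b, a subunit of a protein prenyltransferase, was at -0.58 ± 0.25 in neutrophils (adjusted p = 0.948).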
